A study of Mus musculus with 3 samples.

Results

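The liver X receptors, LXRα (encoded by Nr1h3) and LXRβ (encoded by Nr1h2), and 7 of their target genes were followed in RNA attached to the chromatin of mouse macrophages. The 9 genes were chosen by symbol, as both receptors and a set of textbook targets: Nr1h3, Nr1h2, Abca1, Abcg1, Apoe, Mylip, Lpcat3, Srebf1 and Scd2. They are 9 of 55536 annotated genes, of which 22015 are protein-coding, and all 9 had RNA in every library. The cells were macrophages grown from bone marrow of C57BL/6J mice, with no engineered allele named in the labels. All libraries shared 1 treatment: lipid A at 100 ng/ml for 12 h, a washout of 12 h, and lipid A at 100 ng/ml again for 90 min. Lipid A, the membrane anchor of lipopolysaccharide, is sensed by Toll-like receptor 4. Total RNA of the chromatin fraction was sequenced after ribosomal RNA depletion, in 3 libraries numbered as biological replicates 1 to 3. They started from 1 µg of RNA (replicate 1), 250 ng (replicate 2) and 500 ng (replicate 3). Mouse age and sex were not collected per the labels. The labels do not say whether the replicates were separate cultures or animals, so the spread and the p-values below describe these libraries, and part of the spread may be technical. Untreated cells and cells given lipid A once were not analysed here, so no value below is a response to lipid A.

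Liver X receptors are nuclear receptors that bind oxidised forms of cholesterol. They sit on DNA as a pair with a retinoid X receptor, on direct repeats of a hexamer near AGGTCA spaced by 4 bases, an arrangement called DR4. Without ligand the pair holds corepressors; with ligand it recruits coactivators, and genes for cholesterol export, phospholipid remodelling and fatty acid synthesis are transcribed. In macrophages the pathway is known for unloading cholesterol taken up with lipoproteins and dead cells, and for restraining inflammatory genes. RNA on chromatin is rich in transcripts still being made or spliced, so the levels here are closer to transcription than those of whole-cell RNA.

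Promoter windows, which hold the sequence that LXR is known to bind at some of these genes, were looked up in RefSeq (GRCm38.p6, the build of mm10). Windows ran from 250 bases before to 50 bases after a start site. Of the 9 genes, 7 matched by symbol, with 12 windows; Abcg1 and Scd2 had none. A DR4-like pattern was searched on both strands, with GGTTA as the end of the first half-site, 4 free bases, and CGG as the start of the second half-site (GGTTANNNNCGG). The pattern was chosen after these windows had been read, to fit the element known at Abca1 and Srebf1, so finding it there is no test. It fixes only the letters CGG of the second half-site, so a match need not be that element. It was found in 2 of the 12 windows; 118 of 32851 windows of all genes hold it (0.359%), a share that is no test of these genes. The 2 windows were those of Abca1 and of the downstream start of Srebf1, from which SREBP-1c, the lipogenic isoform known to be induced by LXR, is made. The upstream start of Srebf1, which gives SREBP-1a, had no match. These windows are shown because the annotated Srebf1 mRNAs start at different ones, and each is given 5′ to 3′ on the minus strand, as the 250 bases before the start site, with the pattern or its reverse complement in capitals.
Abca1, chr4:53159896-53160145: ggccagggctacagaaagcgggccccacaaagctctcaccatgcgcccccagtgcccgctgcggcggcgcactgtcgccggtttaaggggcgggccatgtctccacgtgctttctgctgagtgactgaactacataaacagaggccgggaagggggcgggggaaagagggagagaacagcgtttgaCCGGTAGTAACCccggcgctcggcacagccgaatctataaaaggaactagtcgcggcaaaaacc
Srebf1 at the SREBP-1c start, chr11:60210472-60210721: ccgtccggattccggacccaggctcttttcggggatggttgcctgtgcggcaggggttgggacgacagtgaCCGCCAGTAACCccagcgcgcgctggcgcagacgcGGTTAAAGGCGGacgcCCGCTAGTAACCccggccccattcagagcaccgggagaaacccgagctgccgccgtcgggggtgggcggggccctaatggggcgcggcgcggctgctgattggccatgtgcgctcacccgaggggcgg
Srebf1 at the SREBP-1a start, chr11:60220628-60220877: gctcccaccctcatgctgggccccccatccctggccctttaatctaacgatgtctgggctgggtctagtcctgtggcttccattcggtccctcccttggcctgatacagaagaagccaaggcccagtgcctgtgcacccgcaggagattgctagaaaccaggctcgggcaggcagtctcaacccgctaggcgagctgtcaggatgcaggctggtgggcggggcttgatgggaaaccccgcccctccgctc
Abca1 held 1 match, ending 53 bases before its start site. The SREBP-1c window held 3 matches, and none of the 250 bases in any of the 3 windows shown lies in an annotated exon of these genes. The consensus DR4 with AGGTCA in both half-sites was in none of the 12 windows and in 5 of 32851 windows overall (0.0152%). The half-site AGGTCA alone was in none of the 12 windows and in 16.3% of all windows, and GGTTA alone was in 4 of the 12 and in 26.4% of all. A match describes the letters, and says nothing of whether a receptor was bound there.

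Libraries held 12502177 to 21683473 expected counts over genes, with replicate 1 the shallowest and replicate 2 the deepest. Levels are given as TPM (transcript abundance relative to the whole library, corrected for length). They come from the deposited gene table, and a value with ± is a mean with its SD over 3 libraries. Protein-coding genes held 34.1%, 27.4% and 29.4% of TPM in replicates 1, 2 and 3, and all TPM depend on that share. Macrophage markers were present: all 10 had at least 1 TPM in every library, with a summed level of 989 to 1178 TPM. The marker sets of hepatocytes, fibroblasts, dendritic cells, neutrophils and both lymphocyte classes each summed to at most 1.22 TPM in any library. Some of these markers were higher in the other deposited transcript table, led by Cd8a with a mean of 2.00 TPM and Zbtb46 with 1.81. Of the adipocyte markers only Fabp4, which macrophages also express, passed 1 TPM (22.5, 9.52 and 8.90 in replicates 1, 2 and 3), while Adipoq and Lep had 0 counts.

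The LXR genes spanned a wide range of levels. Abca1 was the highest at 201 ± 12.8 TPM and Scd2 the lowest at 3.77 ± 1.53 TPM. At least 10 TPM in each library was reached by 7 of the 9 genes, against 19.1% of all 22015 protein-coding genes; Lpcat3 and Scd2 did not reach it. The median over protein-coding genes with at least 1 TPM in each library was 10.7, 10.8 and 11.4 TPM in replicates 1, 2 and 3. In descending order the genes were Abca1, Nr1h3, Abcg1, Nr1h2, Srebf1, Mylip, Apoe, Lpcat3 and Scd2. Neighbours whose libraries overlapped, and whose order is therefore not separated from the spread, were Abcg1 and Nr1h2, Srebf1 and Mylip, and Mylip and Apoe. In the other transcript table Abcg1, with 87.6 ± 6.98 TPM, stood above Nr1h3, with 84.6 ± 16.3 TPM. In bulk RNA, fewer cells making a transcript and less of it per cell cannot be told apart.

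**Figure D1:**
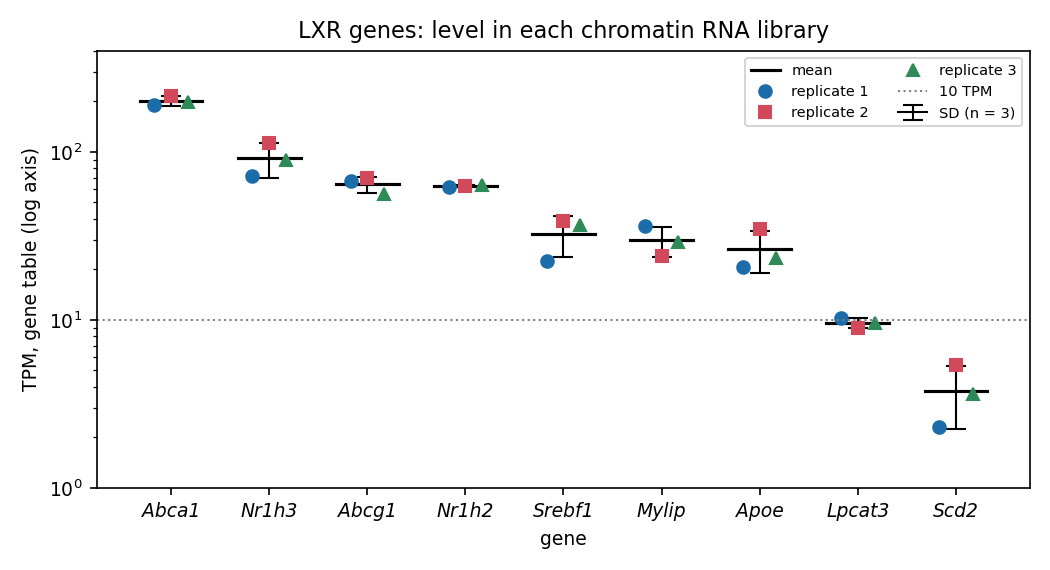
TPM of the 9 LXR genes (log axis) in each of 3 chromatin RNA libraries, genes ordered by mean; points are libraries, horizontal lines are means, error bars are SD (n = 3) and the dotted line marks 10 TPM. Abca1 lies at 191 to 215 TPM and Scd2 at 2.30 to 5.36 TPM, and replicate 2 is the highest library for Abca1, Nr1h3, Abcg1, Srebf1, Apoe and Scd2.

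Both receptor genes were transcribed, and the LXRα gene was the higher of the pair. Nr1h3 (chr2:91184061-91202834, minus strand) had 71.4, 113 and 89.4 TPM in replicates 1, 2 and 3. Nr1h2 (chr7:44549616-44553951, minus strand) had 62.0, 62.4 and 63.8 TPM. The libraries did not overlap: every Nr1h3 value was above every Nr1h2 value, and Nr1h2 hardly varied in TPM. With TPM rescaled to protein-coding genes Nr1h2 had 209 ± 24.3, a spread larger relative to its mean. The within-library difference of log2(TPM + 1), Nr1h2 minus Nr1h3, was -0.51 ± 0.33, with the same sign in 3 of 3 libraries. A permutation test that flips the signs of the 3 differences (exact, two-sided) gives p = 0.25, or 0.3 after Benjamini-Hochberg adjustment over the 6 gene pairs compared. With 3 libraries that test cannot go below 0.25, so no pair could be called. The size of the difference depends on the length used: dividing counts by the length of the longest principal transcript gave -1.25 ± 0.29.

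The RNAs of Nr1h3 and Nr1h2 were the most abundant of their receptor family in the chromatin fraction. Nuclear receptor subfamily 1, to which both genes belong, has 20 genes on the list used here, with thyroid hormone, retinoic acid, PPAR, REV-ERB and vitamin D receptors among others. In each of the 3 libraries both LXR genes were above all 18 others. That order also held in the other transcript table and with counts per kilobase of principal transcript. The next was Nr1d2, encoding the clock repressor REV-ERBβ, at 18.4 ± 3.43 TPM, followed by Rarg, a retinoic acid receptor, at 15.7 ± 1.74 TPM and Ppard, a fatty acid sensing receptor, at 5.82 ± 0.835 TPM. The order of these was not the same in the other table, where Rarg was next in every library at 31.3 ± 5.05 TPM and Nr1d2 had 17.7 ± 3.40 TPM. Of the 18, 6 had 0 counts in every library of the gene table. A count of 0 allows up to 3 counts per library, or 0.240, 0.138 and 0.178 CPM in replicates 1, 2 and 3. Among these was Vdr, the vitamin D receptor.

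RNA of the partner and cofactor genes of LXR was present at uneven levels. Of 14 genes on that list, 13 passed 1 TPM in each library and 7 passed 10 TPM, against 19.1% of protein-coding genes at 10 TPM. Ncor1, the corepressor that LXR holds without ligand, was the highest at 116 ± 7.69 TPM. The coactivator Ncoa3 had 33.7 ± 0.677 TPM. Among the retinoid X receptors, the obligate partners of LXR, Rxra had 1.88, 4.98 and 2.08 TPM and Rxrb 6.89, 12.5 and 10.7 TPM in replicates 1, 2 and 3; both were named after their values were seen. Rxrg had 0 counts in the gene table. Both Nr1h3 and Nr1h2 thus lay above Rxra and Rxrb in every library on this length-corrected scale.

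Abca1 and Abcg1, the transporters that export cholesterol to apolipoprotein A-I and to HDL, were both among the abundant genes. Abca1 (chr4:53030787-53159895, minus strand) had 191, 215 and 197 TPM and ranked 233 among the 22015 protein-coding genes. Abcg1 (chr17:31057675-31117988, plus strand) had 66.8, 69.6 and 56.2 TPM. No library of Abcg1 came near any of Abca1, and both genes varied by at most 1.24 times between libraries. The difference of log2(TPM + 1), Abca1 minus Abcg1, was 1.64 ± 0.15 and positive in 3 of 3 libraries (exact sign-flip permutation test, two-sided p = 0.25, adjusted 0.3). It was 1.20 ± 0.075 in the other transcript table and 2.96 ± 0.096 with counts per kilobase of principal transcript. The depth behind Abca1 was large, at 20169, 41341 and 29153 expected counts, against 1569, 3043 and 1987 for Abcg1.

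The rest of the ABCA and ABCG transporters were low in the gene table. None of the other 16 genes of these families reached 10 TPM in each library there, against 19.1% of protein-coding genes, and 4 reached 1 TPM. The highest were Abca3, a lipid transporter known from lung surfactant, at 11.5 ± 1.87 TPM, Abca7 at 7.71 ± 2.98 TPM and Abca2 at 4.58 ± 3.37 TPM. In the other table Abca4, with 0 counts in the gene table, was the highest of them at 39.8, 19.8 and 24.8 TPM, and Abca3 had 12.4, 14.7 and 17.5 TPM. Abcg5 and Abcg8, whose products form the sterol exporter of liver and gut and which are LXR targets there, had 0 counts in every library of the gene table. Abca1 and Abcg1 were above the other 16 in every library, also in the other table and per kilobase of principal transcript. A ribosomal RNA gene, Gm25447, lies inside Abcg1 on the same strand and had 51.5, 48.8 and 120 TPM; its part in the Abcg1 reads was not tested.

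Apoe, which encodes the apolipoprotein that accepts exported cholesterol, was at a middle level and varied. Apoe (chr7:19696109-19699188, minus strand) had 20.8, 34.7 and 23.5 TPM in replicates 1, 2 and 3, or 26.3 ± 7.40. Replicate 2 stood above the other 2, which lay close together. The highest library was 1.67 times the lowest. Its gene table counts were 182, 520 and 268, over an effective length of 808, 763 and 759 bases. The coding transcript Apoe-209 was assigned 59.5 ± 3.32% of its TPM and the longer reference mRNA Apoe-206 6.33 ± 1.80%. In the other table these were 44.4 ± 9.28% and, as a mean, 12.4%. The division between its transcripts is loose: Apoe-201, of 1128 bases against 1104 for Apoe-209, had 0 counts with deposited posterior SDs of 21.4, 24.6 and 27.9 counts.

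Mylip encodes the ubiquitin ligase IDOL, which limits cholesterol uptake. Mylip (chr13:45389742-45412022, plus strand) had 36.0, 24.0 and 29.0 TPM in replicates 1, 2 and 3. It ran opposite to most of the other genes, with replicate 1 the highest and replicate 2 the lowest. The libraries did not overlap with those of Nr1h2 above it or Lpcat3 below it, but did with those of Srebf1 and Apoe. Its expected counts were 1107, 1293 and 1211.

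Lpcat3 encodes the acyltransferase that puts polyunsaturated chains into phospholipids, and it was low here. Lpcat3 (chr6:124663027-124704418, plus strand) had 10.2, 8.91 and 9.64 TPM, close together in all libraries. Lpcat2, encoding an enzyme of the same reaction class known for making platelet-activating factor in macrophages, had 61.0, 54.2 and 53.3 TPM. Lpcat3 minus Lpcat2 was -2.43 ± 0.069 in log2(TPM + 1), negative in 3 of 3 libraries (exact sign-flip permutation test, two-sided p = 0.25, adjusted 0.3). Lpcat1, the lung surfactant enzyme of that reaction class, was higher still at 79.3 ± 3.16 TPM. Of the 9 genes its level differed most between the tables: the other one gave 18.3 ± 1.24 TPM, 1.91 times the gene table, and its gene counts were 99.3 to 151. It also overlaps Emg1 on the opposite strand by 334 bases, and the sources used here do not say whether reads were counted by strand.

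Srebf1 encodes SREBP-1, which drives fatty acid synthesis genes, and its level was among the most variable of the set. Srebf1 (chr11:60199089-60222581, minus strand) had 22.4, 38.9 and 36.5 TPM in replicates 1, 2 and 3, with replicate 1 well below the other 2. Srebf2, encoding the cholesterol synthesis regulator SREBP-2, had 35.7, 29.4 and 34.8 TPM. Their libraries overlapped, and Srebf1 minus Srebf2 was -0.06 ± 0.53 in log2(TPM + 1), positive in 2 of 3 libraries (exact sign-flip permutation test, two-sided p = 1). Without replicate 1 the difference was 0.23, and in the other table it was 0.14 ± 0.25. Per kilobase of principal transcript it was -0.91 ± 0.56. Which of them is the higher was thus not settled here.

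Of the Srebf1 mRNAs, that from the upstream, SREBP-1a start was assigned more RNA than that from the SREBP-1c start. Srebf1-201, the SREBP-1a mRNA, held 72.1 ± 3.44% of the gene's counts but 28.0 ± 2.75% of its TPM, and 15.7 ± 4.45% of TPM in the other table. Srebf1-201, which begins at base 60220604, the SREBP-1a window shown above, took 250, 874 and 680 expected counts in replicates 1, 2 and 3. Srebf1-207, which begins at 60210465 in the SREBP-1c window, took 18.0, 123 and 34.5, with deposited posterior SDs of 10.2, 23.5 and 13.1. In TPM these were 5.63, 11.0 and 11.2 against 0.56, 2.15 and 0.78, so Srebf1-201 was 5.13 to 14.3 times Srebf1-207. The other table gave the same order with a smaller ratio, 1.99 to 2.27. The starts lie 10139 bases apart. The window with 3 DR4-like matches was that of the transcript assigned less RNA. Srebf1-207 as annotated ends at base 60200463 and has 3177 bases, whereas Srebf1-201 runs on to 60199089 and has 4299. Reads beyond the annotated end of Srebf1-207 could not be assigned to it, whichever start they came from, and the weight of this was not tested. Transcripts from the SREBP-1a start cross the SREBP-1c start, so reads in shared exons do not tell them apart, and reads of unspliced RNA were not separated by start.

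Scd2 encodes a stearoyl-CoA desaturase, which makes monounsaturated fatty acids. Scd2 (chr19:44293674-44306864, plus strand) was the lowest of the 9 genes, at 2.30, 5.36 and 3.64 TPM, from 131, 492 and 265 expected counts. Its paralog Scd1, the main desaturase of liver and fat and a known LXR target, had 0.16, 0 and 0.06 TPM, from 6 counts over all 3 libraries. Scd2 was above Scd1 in every library; the difference of log2(TPM + 1) was 2.10 ± 0.58 (exact sign-flip permutation test, two-sided p = 0.25, adjusted 0.3) and is compressed by the pseudocount, being 4.51 ± 1.28 with a pseudocount of 0.1. The other paralogs, Scd3 and Scd4, had means of 0.0967 and 0.443 TPM in the gene table and were named after their values were seen. In the other table Scd3 had 3.07, 2.16 and 2.04 TPM in replicates 1, 2 and 3, against 2.15, 4.57 and 3.20 for Scd2. There Scd3 was thus above Scd2 in replicate 1, while Scd1 and Scd4 had means of 0.111 and 0.863 TPM.

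**Figure D2:**
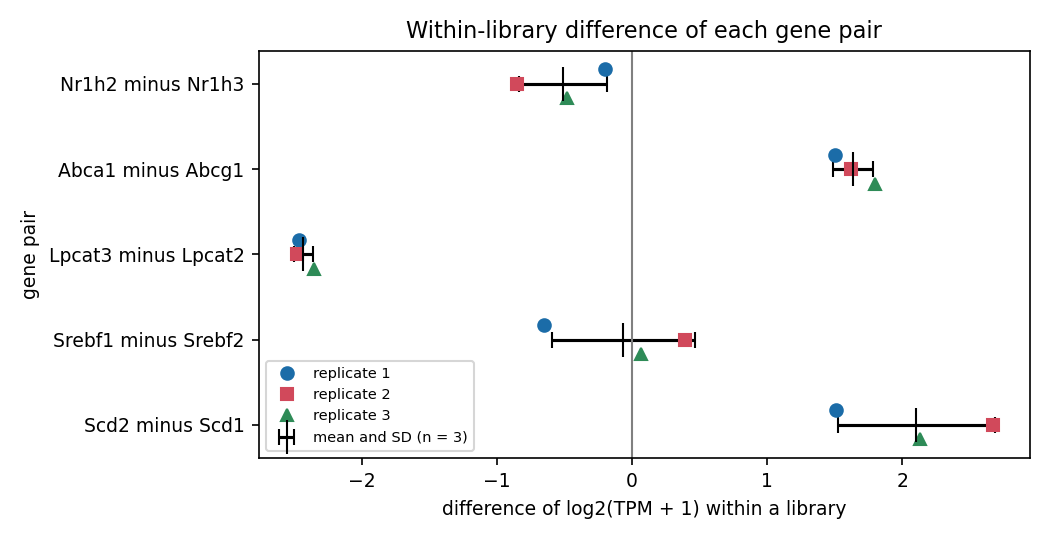
Difference of log2(TPM + 1) within each library for 5 gene pairs, on the horizontal axis; points are the 3 libraries, the vertical tick is the mean and the bar the SD (n = 3). The Abca1, Lpcat3 and Scd2 pairs lie far from 0 in every library, while Srebf1 minus Srebf2 falls on both sides of 0.

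The genes differed in the kind of transcript to which their RNA was assigned. Abca1, Mylip and Scd2, with only 2 annotated transcripts each, were assigned mostly to their main mRNA. Abca1-201 took 97.5 ± 0.710%, Mylip-201 96.0 ± 1.40% and Scd2-201 91.1 ± 8.04% of the gene's TPM. In the other table these were 84.4 ± 4.63%, 70.8 ± 1.43% and 80.5 ± 17.2%. Nr1h3 was mostly on transcripts annotated as retaining an intron, 57.6 ± 3.00% of TPM, led by Nr1h3-208 with 37.6 ± 2.77%. Nr1h2 had 38.8 ± 8.90% on such transcripts, Abcg1 36.4 ± 3.09%, Lpcat3 72.1 ± 6.94% and Apoe 2.66 ± 0.953%. Abca1, Mylip, Srebf1 and Scd2 have no transcript annotated that way, so none of their reads could be assigned to that kind.

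The retained-intron shares of these genes scattered widely among those of other genes. Their median, which over 5 genes is the value of 1 gene, was lower in each library, a difference that was not tested. The median over the 5 genes with such transcripts was 49.0%, 40.0% and 35.1% in replicates 1, 2 and 3. Over 5881 protein-coding genes with such a transcript it was 50.8%, 46.4% and 47.0%. Lpcat3 was above 86.3% of those genes, Nr1h3 above 65.9%, Nr1h2 above 35.3%, Abcg1 above 31.8% and Apoe above 1.43%. Some of these forms are as long as the mRNA, such as Nr1h3-208 with 1985 bases against 1955 for the reference mRNA of that gene, and others are short. Reads of unspliced RNA can be assigned to either.

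Short annotated forms carried much of the TPM of several genes. Nr1h2-212, with 544 bases of which 84.2% lie outside the exons of the reference mRNA, took 35.2 ± 2.81% of Nr1h2 TPM but 11.8 ± 0.432% of its counts. Abcg1-201, the full mRNA of 5832 bases, took 27.3 ± 2.65% of TPM and 67.9 ± 3.61% of counts. Transcripts of Srebf1 annotated as processed, without a coding frame, took 67.7 ± 4.15% of TPM and 19.7 ± 4.58% of counts. For Lpcat3-201, the only coding transcript of its gene, the shares were 24.2 ± 4.75% of TPM and 54.7 ± 8.58% of counts. The gene TPM of Nr1h2, Abcg1, Srebf1 and Lpcat3 thus rests partly on short forms. On counts per kilobase of principal transcript the order was Abca1, Nr1h3, Nr1h2, Mylip, Abcg1, Apoe, Srebf1, Lpcat3 and Scd2, so Abcg1 and Srebf1 stood lower than by TPM.

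Levels from the other transcript table, summed per gene, placed the set in much the same range. Abca1 had 202 ± 9.28 TPM there, the value nearest to its gene table level among the 9 genes. Nr1h2 had 60.2 ± 4.37 TPM and again varied little. Srebf1 had 40.2 ± 5.98 and Mylip 37.3 ± 6.83 TPM, both above their gene table means. Apoe was lower there, at 18.7 ± 4.07 TPM, and Scd2 remained the lowest at 3.31 ± 1.21 TPM. In that table replicate 1 was again the lowest library of Nr1h3, Srebf1, Apoe and Scd2, at 72.9, 33.8, 16.1 and 2.15 TPM, and the highest of Mylip, at 43.9 TPM. Abca1 differed: its replicate 1, at 208 TPM, was the highest there and the lowest in the gene table.

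Counts per kilobase of principal transcript use all counts of a gene, short forms included, and change only the length; on that scale the lead of Abca1 was wider. It had 150, 198 and 166 CPM per kilobase in replicates 1, 2 and 3, and the next gene, Nr1h3, had 46.9, 82.9 and 56.5. Nr1h2, Mylip and Abcg1 were close together, with means of 25.5, 23.8 and 22.0 CPM per kilobase. Srebf1 had 10.9 ± 4.09 and Lpcat3 3.34 ± 0.108 CPM per kilobase.

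**Figure D3:**
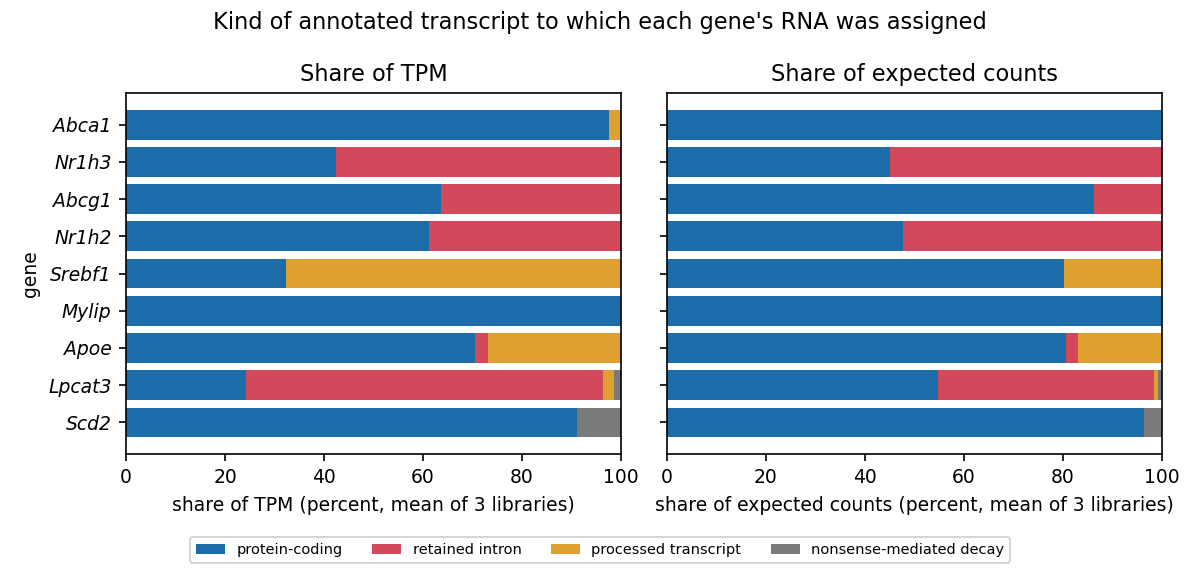
Share of each LXR gene's RNA by kind of annotated transcript, as percent of TPM (left) and of expected counts (right), mean of 3 libraries. Processed transcripts hold 67.7% of Srebf1 TPM but 19.7% of its counts, and Lpcat3 has the largest retained-intron share, 72.1% of TPM.

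Several of the genes took the same order between the libraries, with replicate 1 low and replicate 2 high. TPM rose in the order replicate 1, 3, 2 for 5 of the 9 genes (Abca1, Nr1h3, Srebf1, Apoe and Scd2), against 20.2% of 9039 protein-coding genes with at least 1 TPM in each library. The opposite order, with replicate 1 highest and replicate 2 lowest, was seen for 2 of 9 (Mylip and Lpcat3), against 26% of those genes. With CPM, counts scaled to library size with TMM factors, the first order was seen for 6 of 9 genes, against 32.1%. In the other table the first order was seen for 3 of 9 (Nr1h3, Apoe and Scd2), against 13.2% of the same genes, and 1 of 9 the opposite (Mylip), against 33.7%. The order matches that of depth, lowest in replicate 1, and is the reverse of the amount of starting RNA; with 3 libraries these and the replicate itself cannot be told apart.

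The size of this spread was read against genes at a like level. For Srebf1 the SD of log2 TMM CPM was 0.62, above that of 94.7% of 2638 protein-coding genes within 2-fold of its mean. For Scd2 it was 0.63, above 92.0% of such genes, and for Nr1h3 0.42, above 84.1%. Apoe had 0.46 and stood above 78.7% of like genes. Abcg1, Abca1, Mylip and Nr1h2 had SDs of 0.15 to 0.21, below the median of their like genes. Lpcat3 had 0.05, above only 1.67% of like genes. Of the receptors, Nr1h3 thus varied more than most genes of its level and Nr1h2, above 28.0% of like genes, less.

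**Figure D4:**
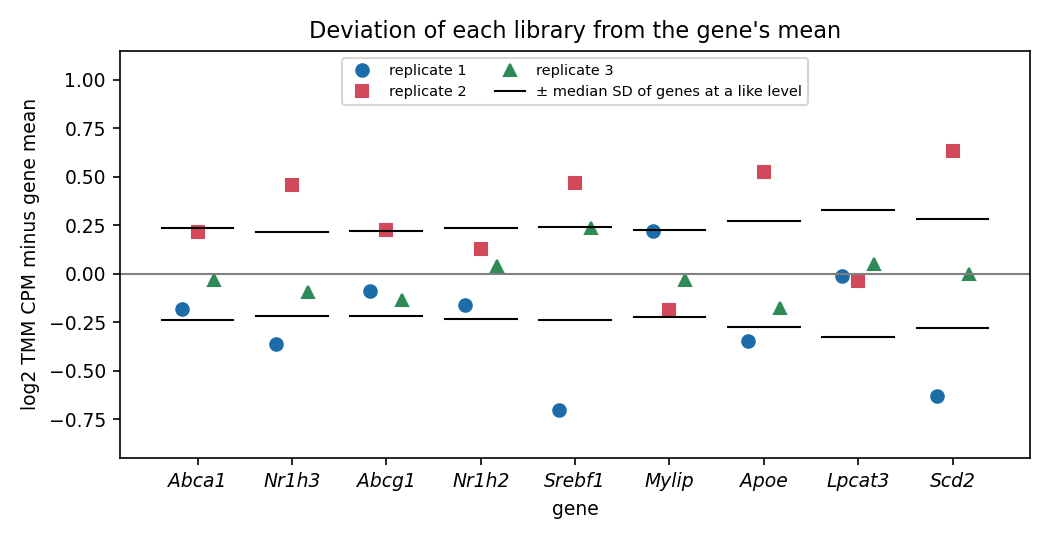
Log2 TMM CPM of each LXR gene in each library minus the gene's mean; black lines mark plus and minus the median SD of protein-coding genes within 2-fold of its level. Replicate 1 lies lowest and replicate 2 highest for Srebf1, Scd2, Apoe and Nr1h3, beyond those lines, while Lpcat3 stays near 0.

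Genes with the most alike pattern were taken as the protein-coding genes nearest in log2(TPM + 1) over the 3 libraries, by Euclidean distance. For Nr1h3 these were Tpcn2 (distance 0.13) and Mroh1 (0.18), and for Nr1h2 Eif4h (0.02) and Suco (0.05). Abca1 was nearest to Eef1a1 (0.15), the translation elongation factor gene, and to Ccdc9 (0.15). Mylip was nearest to Ireb2 (0.01), whose values were 36.1, 24.2 and 29.2 TPM, and Srebf1 to the ribosomal protein gene Rpl27a (0.16). No LXR gene was among the 2 nearest of another. With 3 values per gene such matches are a description only.

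Other textbook LXR targets ranged from 0 counts to 103 TPM in the gene table. Of 20 further targets, 12 had at least 1 TPM in each library, against 9039 of all 22015 protein-coding genes. At least 10 TPM was reached by 5, against 19.1% of protein-coding genes. Another 4 (Apoc1, Apoc4, Abcg5 and Abcg8) had 0 counts in every library. The median level of the list in the gene table was 2.30, 2.42 and 2.35 TPM in replicates 1, 2 and 3. The highest was Mertk, the receptor that clears dying cells and also 1 of the macrophage markers above, at 103, 74.0 and 63.6 TPM. Tgm2, a transglutaminase of macrophages, had 47.2, 41.0 and 36.9 TPM. Lpl, the lipoprotein lipase that releases fatty acids from lipoproteins, had 59.3, 13.1 and 24.7 TPM and was highest in replicate 1, unlike Srebf1 and Nr1h3. Across 6 lists of related genes, 28 of 90 distinct genes reached 10 TPM in each library of the gene table, against 19.1% of protein-coding genes. Of the 90, 13 had 0 counts in all libraries.

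**Figure D5:**
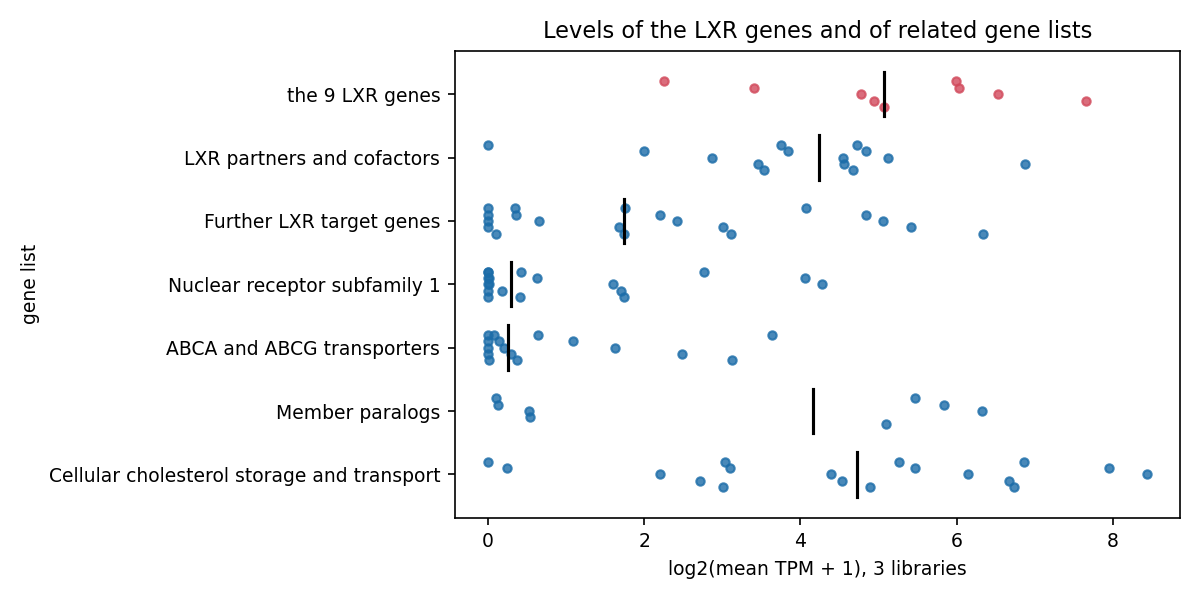
Level of each gene as log2(mean TPM + 1) over 3 libraries for the 9 LXR genes and 6 related gene lists; points are genes, vertical lines are medians of each list, and vertical scatter has no meaning. The nuclear receptor and ABCA/ABCG families lie mostly near 0, with 2 and 0 genes at 10 TPM or more in each library.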

How the data were processed

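Chromatin RNA of 3 macrophage libraries was analysed. Per the file headers and the labels, the authors deposited, on mm10 with GENCODE M21, gene and transcript tables of expected counts (estimated counts) and TPM from transcriptome alignments, with a posterior SD of each transcript count (used as a score), and another transcript table of estimated counts and TPM made from the reads. The sources used here name no aligner, quantifier or strand setting. Transcript values depend on how the authors' software divides shared reads.

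All 55536 annotated genes were matched by identifier. Rows that are no annotated gene (26345) held 1.34%, 0.292% and 0.416% of counts in replicates 1, 2 and 3 and were left out. A count of 0 allows up to 3 counts, counting error only. The members and lists were chosen with earlier results of these data known. The text names the 9 genes, the 3 highest and the lowest of each list, the pair partners and the 2 nearest genes of each LXR gene, though not all of them; some genes, and 1 of the 6 pairs, are not reported here.

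Pairs were compared within libraries on log2(TPM + 1) by a two-sided, exact permutation of the signs, adjusted by Benjamini-Hochberg over 6 pairs; a fold on this scale is understated for low genes. Expected counts were rounded for TMM factors and log2 CPM (prior count 1) in edgeR 4.0.16; DESeq2 1.42.0 gave other size factors; both in R 4.3.3. The normalisation was tested on simulated data. Python 3.11.15, numpy 2.4.6, pandas 2.3.3 and matplotlib 3.10.9 did the rest. A chi-square comparison of counts over genes gave 30.5 to 157 per degree of freedom between libraries, so no library was a copy of another. Alternatives were another pseudocount, TPM rescaled to protein-coding genes, counts without length, the other table, other limits and leaving out each replicate; counts per kilobase of the longest principal transcript were added after seeing the data.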

Additional observations from a re-analysis of the deposited data

Results flagged for a closer look

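Some related genes had 0 counts in every library of the gene table and a level above 0 in every library of the other transcript table, which the comparisons do not use. Among transporters, Abca4 had 28.2 ± 10.4 TPM there (39.8, 19.8 and 24.8 in replicates 1, 2 and 3) and Abca12 1.81 ± 0.233 TPM. Apoc4, a neighbour of Apoe on chromosome 7, had 14.0 ± 2.79 TPM. Among nuclear receptors, Rorb had 1.21 ± 0.0977, Nr1h5 0.981 ± 0.200, Rxrg 0.491 ± 0.228 and Ppara 0.202 ± 0.0343 TPM. These are means ± SD over 3 libraries. Which table is closer to the RNA in the cells was not tested.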

How the results depend on the processing

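No paired analysis was possible because all 3 libraries belong to 1 group. Over the 6 gene pairs, 57 of 59 alternative values kept the direction of the value reported, and none could pass the exact test. Many of them could not have changed it. Library scaling nearly cancels within a library, and the limit of 1 TPM left 5 values as they were. Leaving out a replicate cannot reverse a pair whose libraries all share a sign. The 2 values that changed direction were both Srebf1 minus Srebf2, at -0.06 in the report: 0.14 in the other table, and from -0.29 to 0.23 when each replicate was left out, positive without replicate 1. The cause was not tested for the other table. Scd2 minus Scd1 gave no value when both genes had to have a mean of at least 1 TPM. The count of genes at 10 TPM and the median retained-intron share moved by less than 1.5 times and 1 SD, respectively, in all 14 alternatives run. Of 45 alternative levels of single genes, 31 stayed within 1 SD; rescaling to protein-coding genes moved all 9, and the other table moved 5. Low counts in the shallowest library limit Lpcat3 (99.3), Scd2 (131) and Apoe (182), and the division between the Srebf1 starts rests on 18.0 counts of Srebf1-207 there.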

Other observations

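Genes that store and move cholesterol inside the cell were mostly well represented on chromatin. Of 18 on that list, 16 passed 1 TPM in each library and 11 passed 10 TPM, against 19.1% of protein-coding genes at 10 TPM. Msr1, a scavenger receptor for modified lipoproteins, was the highest with 463, 278 and 292 TPM in replicates 1, 2 and 3. Gramd1a, which carries cholesterol from the plasma membrane to the endoplasmic reticulum, had 154, 287 and 294 TPM. The lysosomal cholesterol carrier Npc2 had 152, 97.4 and 94.6 TPM. Msr1 and Npc2 were highest in replicate 1 and Gramd1a lowest there. Vldlr, the VLDL receptor, had 1 count in all.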
